A study of Mus musculus with 2 samples.

Results

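Myelin and Schwann cell transcripts of mouse dorsal skin were measured in Mpzl3 null pups relative to wild-type pups of the same litters at 1 day (P1) and 9 days (P9) of age. Probes naming a single gene were chosen where that gene was 1 of 9 selected by name, namely Mag, Mbp, Mobp, Pmp22, Prx, Sox10, Egr2, Mal and Cnp. In all, 15 of the 31337 single-gene probes met the rule and covered 8 of the 18855 named genes, since no probe named Prx here. The data are 2 Agilent Whole Mouse Genome arrays with 2 dyes each, 1 array per age, with the RNA labelled Mpzl3 null in Cy5 and the RNA labelled wild type in Cy3 on both. All pups were littermates of the genotypes -/- or +/+. The sources used here do not give the allele behind the null label, the strain, or whether a channel held 1 pup or a pool. Each value is the log2 ratio of null over wild type, so that 1 stands for a 2-fold higher signal in the null channel. There was no dye swap, so dye and genotype cannot be told apart. Sex-linked transcripts differed between the channels, so at P9 sex and genotype cannot be told apart either. No age has a second array, so no difference could be tested, and precision is limited by the number of arrays. Pooled over all genes, probes of the same gene had an SD of 0.36 log2 at each age; it covers probes and spots, not animals.

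Schwann cells ensheath the axons of skin nerves, and those that take up a large axon wrap it in myelin. SOX10 keeps cells in the Schwann lineage, and together with EGR2 it switches on the genes of the myelin sheath. The sheath is made of compact myelin, whose membranes are held together by proteins such as MBP and PMP22, and of non-compact loops and inner membranes, where MAG and CNP lie. MAG faces the axon, and periaxin, the product of Prx, links the outer Schwann cell membrane to its surroundings. Several of the genes are not exclusive to these cells. MOBP is known as a protein of oligodendrocytes, the myelinating cells of the brain and spinal cord, PMP22 and MAL are also made by epithelial cells, and melanocytes depend on SOX10 too. A ratio carries no level, so it cannot be read from these arrays whether a transcript was abundant in the skin. In bulk tissue, fewer cells of a type and less RNA per cell cannot be told apart either.

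The promoter windows of Mobp, Mag and Cnp are shown because these genes had the highest ratios of the 8 at P1 and because each window holds the letters ACAAAG, a motif of the SOX family, on either strand. The windows run from 250 bases before to 50 bases after a start site, and come from RefSeq on GRCm38.p6. The Mobp window is chr9:120149492-120149791 on the plus strand, the Mag window is chr7:30914814-30915113 on the minus strand and the Cnp window is chr11:100574689-100574988 on the plus strand. Capitals mark ACAAAG or its complement CTTTGT.
Mobp: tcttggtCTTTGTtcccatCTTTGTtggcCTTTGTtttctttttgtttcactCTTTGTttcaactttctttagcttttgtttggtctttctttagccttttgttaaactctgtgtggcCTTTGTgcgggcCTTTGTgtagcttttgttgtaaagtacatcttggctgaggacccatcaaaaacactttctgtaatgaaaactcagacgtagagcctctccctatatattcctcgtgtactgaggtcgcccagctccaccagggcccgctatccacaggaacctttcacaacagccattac
Mag: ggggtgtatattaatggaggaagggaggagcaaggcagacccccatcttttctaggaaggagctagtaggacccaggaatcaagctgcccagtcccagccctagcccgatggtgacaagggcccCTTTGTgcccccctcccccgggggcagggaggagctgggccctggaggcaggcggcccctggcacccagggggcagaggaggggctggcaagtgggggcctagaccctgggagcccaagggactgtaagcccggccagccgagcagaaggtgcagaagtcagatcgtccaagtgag
Cnp: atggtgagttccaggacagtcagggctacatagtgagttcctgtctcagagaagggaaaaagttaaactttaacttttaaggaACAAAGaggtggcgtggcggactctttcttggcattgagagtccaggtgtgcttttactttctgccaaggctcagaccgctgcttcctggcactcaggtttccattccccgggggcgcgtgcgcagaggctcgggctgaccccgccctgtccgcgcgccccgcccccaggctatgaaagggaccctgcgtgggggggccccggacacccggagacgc

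The Mobp window holds 6 such matches, which no other of the 32851 promoter windows in the table reached. The first starts at −243 and the last at −120 relative to the start site. Mag has 3 windows, and the match at −126 in the one shown is the same site that its second window holds, while the third has none. Cnp has its match at −167. Windows were at hand for 7 of the 9 genes, 16 windows in all, and 4 windows of 3 genes held a match. In the whole table, 18.7% of windows and 21.0% of genes held one. Neither Pmp22 with 4 windows, Egr2 with 5, nor Mal and Prx with 1 each held the letters. The EGR motif GCGTGGGCG was in 0 of the 16 windows and in 0.612% of all windows, and its inner letters GTGGGCG were in 1 window, of Egr2 itself, against 7.97% of all. Across all genes with a window, those with a SOX match had a median ratio of 0.05 at P1 and those without one had 0.07, and at P9 both medians were 0.02. A match in such a short motif is a description of the letters and shows no binding.

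Of the regulators, Sox10 was above 0 at P1 and near 0 at P9, and Egr2 was small at both ages. Sox10 has 2 probes. At P1 one was blank and the other was at 0.59. At P9 that same probe was at 0.31 and the second probe was at −0.20, so its probes differed in sign and their mean was 0.05 ± 0.36 (SD, 2 probes). The drop in the mean of Sox10 from P1 to P9 was 0.54, and over the probe measured at both ages it was 0.28. Egr2, the zinc finger factor that drives myelination, was at −0.11 at P1 and 0.28 at P9 by its only probe. Both values are smaller than the spread between probes of a gene.

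The proteins of compact myelin lay on both sides of 0. Mbp encodes myelin basic protein, which binds the cytoplasmic faces of the membrane together. Its 3 probes were at 0.68, 0.41 and 0.31 at P1 and at 0.13, 0.13 and 0.42 at P9. All 6 values lay above 0, with means of 0.47 ± 0.19 (SD, 3 probes) and 0.23 ± 0.17 (SD, 3 probes). Mal, a small proteolipid of myelin and of apical epithelial membranes, was at 0.37 and 0.35 at P1. Its probes parted at P9, at 0.30 and −0.06. The mean of Mal was 0.36 ± 0.01 (SD, 2 probes) at P1 and 0.12 ± 0.26 (SD, 2 probes) at P9.

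Pmp22 was the only one of the 8 genes with a mean below 0 at P9. It encodes the peripheral myelin protein whose dosage is altered in inherited neuropathy of Charcot-Marie-Tooth type. Its probes were at −0.10 and 0.14 at P1, a mean of 0.02 ± 0.17 (SD, 2 probes). At P9 they were at −0.58 and −0.04, a mean of −0.31 ± 0.38 (SD, 2 probes). The probe with the lower value at both ages is the one annotated to a RefSeq transcript of Pmp22, and the other is annotated to a cDNA clone outside the current RefSeq transcripts of the gene.

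Mobp had the highest single-probe values of the 15 probes, and its other probe did not share them. The probe A_51_P291224 was at 1.70 at P1, a 3.25-fold ratio, and at 1.72 at P9, a 3.29-fold ratio. Among all probes naming a single gene it ranked at place 28 of 28377 at P1 and at place 27 of 30014 at P9. The second probe, A_52_P267600, was at −0.19 at P1 and blank at P9. The platform annotation assigns the probes to different RefSeq transcripts of Mobp, NM_001039365 for the high one and NM_008614 for the low one.

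The gap of 1.89 log2 between the Mobp probes at P1 was rare on the array. Of the 4861 genes with exactly 2 measured probes at P1, 6 had a gap at least as wide, or 0.123%, and the median gap was 0.28. The mean of Mobp at P1 was therefore 0.76 ± 1.34 (SD, 2 probes), and it was not called past 2-fold because its probes had opposite signs. At P9 the mean of Mobp is the 1 high probe alone, which placed it at rank 11 of 18269 genes. Its call past 2-fold at P9 thus rests on a probe that another probe of the same gene did not match at P1.

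Of the proteins of non-compact myelin, Mag had all 4 of its values well above 0, and Cnp was above 0 at both ages. Mag encodes the myelin-associated glycoprotein, a sialic acid-binding adhesion molecule. Its probes were at 1.16 and 0.73 at P1 and at 1.20 and 0.49 at P9. The means were 0.95 ± 0.31 (SD, 2 probes), a 1.93-fold ratio, and 0.84 ± 0.50 (SD, 2 probes), a 1.80-fold ratio. Mag exceeded 98.0% of the genes measured at P1 and 96.8% at P9. The same probe was the higher one at both ages, and the gap between the probes was 0.44 at P1 and 0.71 at P9, at least as wide in 33.0% and 13.6% of genes with 2 probes. Cnp, an enzyme and structural protein of the cytoplasmic channels of myelin, was at 0.64 at P1 and 0.39 at P9 by its only probe, above 93.0% and 87.1% of genes.

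**Figure D1:**
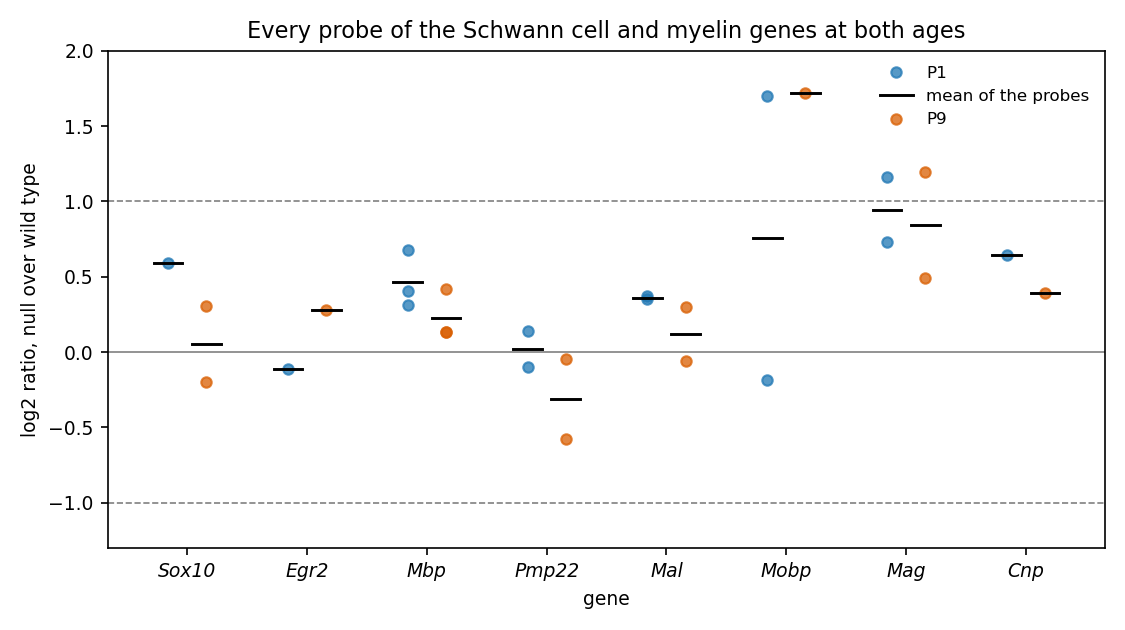
Log2 ratio of null over wild type (vertical axis) for every probe of the 8 measured genes (horizontal axis), with P1 in blue and P9 in orange; points are probes, black bars are means of the probes of a gene, and dashed lines mark 2-fold. The high Mobp probe sits near 1.7 at both ages with its other probe below 0 at P1, both Mag probes stay above 0, and Mbp is above 0 at all 6 points.

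Taken as a set, 7 of the 8 measured genes had a mean above 0 at P1, where 55.8% of all genes did, and 7 of 8 at P9, where 53.4% did. Egr2 was the exception at P1 and Pmp22 at P9. At P1 Pmp22, at 0.02, was above 0 but below the median of all genes. That median was exceeded by 6 of the 8 at P1 and by 7 at P9. The median of the 8 genes was 0.53 at P1 and 0.25 at P9, beside medians of 0.06 and 0.02 over all genes. A gene was called past 2-fold where its mean was at least 1 in size and its probes had the same sign. At P1, 0 of 8 were called higher or lower, against 1.72% of all genes higher and 1.17% lower. At P9, 1 of 8 was called higher, Mobp, against 2.24% of all genes, and 0 of 8 lower, against 0.465%. Most of the genes called higher past 2-fold had 1 probe, 281 of 296 at P1 and 386 of 409 at P9. The shares of all genes are therefore not matched to the 8 genes in number of probes. At 1.5-fold, 3 genes were called higher at P1, Mag, Cnp and Sox10, where 9.08% of all genes were, and 2 at P9, Mobp and Mag, where 6.17% were. Sox10 was just inside that fold, at 0.589 where the threshold is 0.585 log2, and Mbp, the next gene below it, was at 0.47 at P1. None of the 8 was called lower at 1.5-fold, where 6.92% of all genes were at P1 and 3.3% at P9. The set was small, and it was chosen with these ratios known.

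The order of the genes was not well separated. At P1 it ran from Mag at 0.95 through Mobp at 0.76, Cnp at 0.64, Sox10 at 0.59, Mbp at 0.47, Mal at 0.36 and Pmp22 at 0.02 to Egr2 at −0.11. In 0 of the 7 pairs of neighbours did the gap exceed the spread between probes. At P9 the order ran from Mobp at 1.72 through Mag at 0.84, Cnp at 0.39, Egr2 at 0.28, Mbp at 0.23, Mal at 0.12 and Sox10 at 0.05 to Pmp22 at −0.31. There the gaps of Mobp over Mag, 0.87, of Mag over Cnp, 0.45, and of Sox10 over Pmp22, 0.36 (0.3635 against a spread of 0.359), exceeded it, and the other 4 did not. The spread is that of single probes, while the gaps are between means of 1 to 3 probes. A gap past it therefore does not show that neighbours are separated, and Mobp at P9 is its high probe alone.

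Between the ages, 6 of the 8 genes had a lower ratio at P9 than at P1. The differences of P9 minus P1 were −0.10 for Mag, −0.24 for Mbp, −0.24 for Mal, −0.25 for Cnp, −0.33 for Pmp22 and −0.54 for Sox10. Egr2 went the other way with 0.39, and so did Mobp with 0.96. The median difference was −0.24, beside −0.01 over the 16647 genes measured at both ages, whose SD was 0.33. Of all genes, 51.9% had a difference below 0. Only Sox10, Egr2 and Mobp lay outside 1 such SD, and 9.27%, 19.9% and 1.07% of genes had a larger difference in size. The Mobp and Sox10 differences each came with a probe that was blank at 1 age. Over the probe measured at both ages they were 0.02 for Mobp and −0.28 for Sox10, both within 1 such SD. Over probes with a value on both arrays, 9 of 13 went down, with a range from −0.55 for a probe of Mbp to 0.39 for Egr2. None of these differences has a replicate, and they were not tested.

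**Figure D2:**
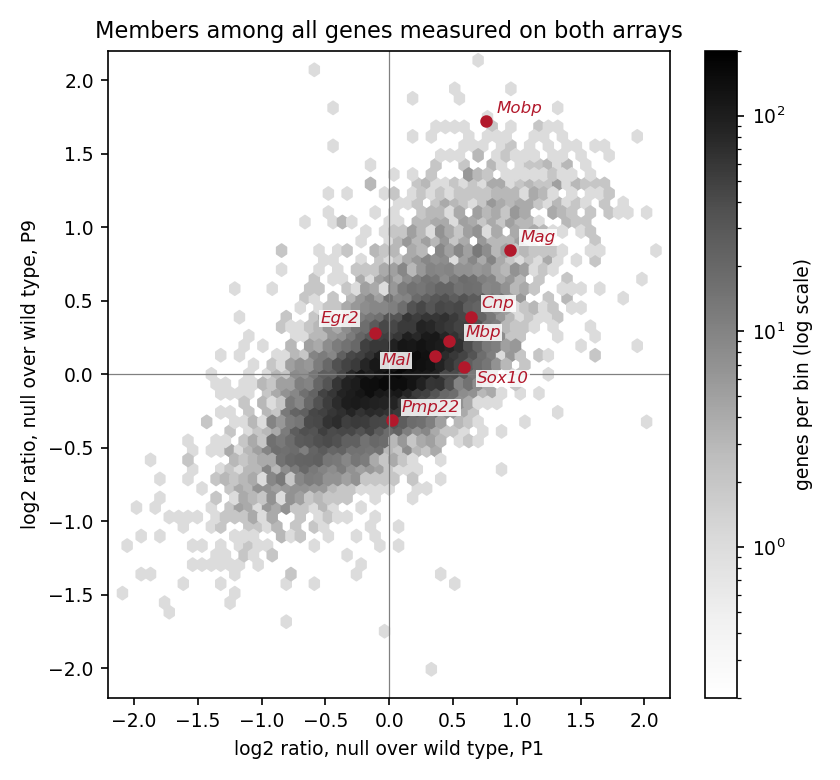
Log2 ratio at P1 (horizontal axis) against P9 (vertical axis) for genes measured on both arrays, drawn as grey bins whose shade gives the number of genes on a log scale, with the 8 Schwann cell and myelin genes in red. Mobp and Mag lie to the upper right of the dense centre, the other 6 genes lie within or beside it, and 2 genes of the arrays lie outside the axes.

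The arrays resembled each other. Across all genes the ratios at P1 and P9 correlated with r = 0.674. The difference of a probe from the mean of its own gene was shared to a like degree, with r = 0.673 over 17527 probes, and 79 control spots gave r = 0.560. These are descriptions across genes and spots, which are not independent replicates, on arrays that share the slide, the dye orientation and the probes. The Mobp probe that read 1.70 and 1.72 and the Mag probe that read 1.16 and 1.20 differed between ages by 0.02 and 0.03. The part of probe and dye in these values was not tested. The channels also differed in sex-linked transcripts. At P9 Xist was at 3.67 ± 1.05 (SD, 4 probes) and the Y-linked Eif2s3y at −3.98, and at P1 Xist was at −1.03 ± 0.77 (SD, 4 probes), with Eif2s3y blank. The part of this in the values of either age and in their differences was not tested. Mpzl3 itself was at −0.21 at P1 and 0.20 (0.195 before rounding) at P9 by 1 probe; its place relative to the deleted part is unknown here, and it does not check the genotype labels.

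Lists of other genes of myelin, myelination and the node had medians closer to that of all genes than the 8 genes had. They were not restricted to the myelinating Schwann cell. The myelin list holds Mog, Opalin and Cldn11, also counted below as oligodendrocyte markers, and the myelin protein zero relatives Mpzl1 and Mpzl2. The node list, given further below, also holds axonal genes. Of the 20 genes of the myelin list, 14 had a value at each age, with a median of 0.12 at P1 and 0.02 at P9. Of these, 10 of 14 were above 0 both times and 0 were past 2-fold. Among them Cryab, a small heat shock protein, was at 0.66 ± 0.21 (SD, 2 probes) at P1 and 0.21 ± 0.04 (SD, 2 probes) at P9, and Sirt2, a deacetylase of myelin, was at 0.54 ± 0.10 and 0.46 ± 0.18 (SD, 3 probes each). Gpm6b, a membrane glycoprotein gene of glia and neurons, was on the other side at −0.59 ± 0.10 (SD, 2 probes) and −0.27 ± 0.47 (SD, 3 probes).

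Genes that regulate myelination, among them genes that hold it back, lay on both sides of 0. Of 24 regulators, 9 were above 0 at P1 and 11 at P9, with medians of −0.04 and −0.01. Because the list mixes both kinds, its median gives no direction for either. Pou3f2 is a POU factor whose role overlaps that of Pou3f1, an activator of Egr2. It was past 2-fold at both ages, at 1.31 and 1.30, by 1 probe that no other probe could check. Pou3f1 was at −0.002 and −0.03, also by 1 probe. Egr3, a relative of Egr2, was past 2-fold in the other direction at P1, at −1.36 by 1 probe, and at −0.46 ± 0.60 (SD, 2 probes) at P9. Sox2, which holds Schwann cells in an immature state, was at −0.50 and −0.52. The co-repressors of EGR2 were small, Nab1 at −0.26 (−0.255 before rounding) and −0.19 and Nab2 at −0.01 and −0.08. Neuregulin, laminin and adhesion receptor genes had medians of 0.12 at each age, over 20 genes at P1 and 21 at P9, with 0 past 2-fold. Erbb3, the neuregulin receptor of Schwann cells, was at 0.14 and 0.07 by 5 probes. Lgi4, a secreted signal that Schwann cells need to myelinate, was at 0.67 ± 0.02 and 0.39 ± 0.07 (SD, 2 probes each).

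Genes of the node of Ranvier and the paranode, where myelin ends, had a median of 0.24 at P1 and 0.05 at P9 over 16 genes, with 12 and 10 above 0. At P1, 2 of the 16 were past 2-fold, each by 1 probe. Cntnap1, an axonal protein of the paranodal junction, was at 1.48 at P1 and 0.46 at P9. Kcna2, an axonal potassium channel, was at 1.28 and 0.91. Cadm4, the adhesion molecule of the Schwann cell that faces the axon along the internode, was at 0.97 and 0.72. The difference of P9 minus P1 was below 0 for 13 of the 16, with a median of −0.25. Myelin lipid genes had medians of 0.03 and 0.04 over 14 genes with 0 past 2-fold. Among them Fa2h, which makes the hydroxylated fatty acids of myelin galactolipids and of epidermal lipids, was at 0.68 and 0.60, and Scd2, a desaturase, was at −0.36 (−0.355 before rounding) and −0.82.

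Markers of the Schwann lineage other than the myelin genes also lay near the median of all genes. Over 18 genes the medians were 0.08 at P1 and 0.11 at P9, with 10 and 12 above 0 and 0 past 2-fold. Ngfr, the low-affinity neurotrophin receptor, was at 0.62 ± 0.11 and 0.28 ± 0.24 (SD, 2 probes each), and Gfra3, a receptor subunit for artemin, was at 0.70 and 0.44. S100b was at 0.32 and 0.03, Foxd3 at 0.38 and 0.16, and Cdh19 at −0.25 and −0.03. These 3 genes, named for their role, mark Schwann cells and their precursors. None differed from 0 by more than the spread between probes except Foxd3 at P1. Others in the list lay further from 0 at P1, on both sides, such as Cmtm5 at 0.715 and Scn7a at −0.68. The label of the set as genes of skin nerves could therefore not be checked by a common shift of Schwann markers, and the ratios do not give levels. Genes mutated in demyelinating Charcot-Marie-Tooth disease had medians of 0.16 over 12 genes and 0.02 over 11. In that list Sh3tc2, an endosomal protein of Schwann cells, was at 0.99 and 0.78, and Fgd4, an activator of CDC42, was at −0.98 ± 0.14 and −0.62 ± 0.27 (SD, 2 probes each).

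Markers of other cell types also lay above 0 at P1. The median of the skeletal muscle markers was 0.81; of these genes 19 of 20 were above 0 and 5 were past 2-fold, Myh2 at 1.55, Actn3 at 1.34, Myh7 at 1.32, Acta1 at 1.14 and Ryr1 at 1.12. At P9 their median was 0.26, close to the 0.25 of the 8 genes, again with 19 of 20 above 0, and 0 passed 2-fold. Genes of the neuromuscular junction had a median of 0.52 at P1, with 12 of 12 above 0, and 0.16 at P9, with 9 of 11 above 0. In that list Colq was past 2-fold higher at P9, at 1.34 by 1 probe, up from 0.65 at P1. Adipocyte markers had medians of 0.45 and 0.03, and endothelial markers of 0.23 and −0.04. Their differences of P9 minus P1 had medians of −0.49 for muscle, −0.20 for the neuromuscular list, −0.41 for adipocytes and −0.28 for endothelium, in the same direction as the −0.24 of the 8 genes. The part of these tissues in the ratios of the myelin genes was not tested.

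Markers of further cell types were also examined. Melanocyte markers, of interest because of Sox10, had medians of −0.12 at P1 and −0.39 at P9, with 4 and 2 of 10 above 0 and Oca2 past 2-fold at P9 at −1.24. Oligodendrocyte markers, of interest because of Mobp, had medians of 0.07 over 10 genes at P1 and −0.11 over 11 at P9, with 7 and 5 above 0 and 0 past 2-fold. Opalin, a protein of mature oligodendrocytes, was at 0.65 and 0.01, and Mog, the glycoprotein of the outer surface of central myelin, was blank at P1 and at 0.33 at P9. Neuron and axon markers had medians of 0.10 and −0.02, with 10 of 15 and 6 of 16 above 0 and 0 past 2-fold. Among them Tubb3 was at 0.74 and 0.24 (0.235 before rounding) and the neurofilament gene Nefm at 0.10 and −0.02. Perineurial and endoneurial markers had medians of 0.19 and 0.07 over 11 genes, with 8 and 7 above 0. Among them Lypd2 was at 0.71 at P1 and past 2-fold higher at P9, at 1.17, by 1 probe. Fibroblast markers had medians of 0.05 and −0.11 over 9 genes, with 5 and 2 above 0. The collagen gene Col1a2 was past 2-fold lower at both ages, at −1.12 and −1.20 by 1 probe. Dcn, which encodes decorin, was past 2-fold lower at P1, at −1.56 by 1 probe, and at −0.45 at P9. Col1a1, another collagen gene, was at 0.32 ± 0.37 and 0.07 ± 0.25 (SD, 2 probes each). Keratinocyte markers, of interest because epithelial cells make PMP22 and MAL, had medians of 0.04 over 8 genes at P1 and 0.50 over 7 at P9, with 5 and 7 above 0.

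**Figure D3:**
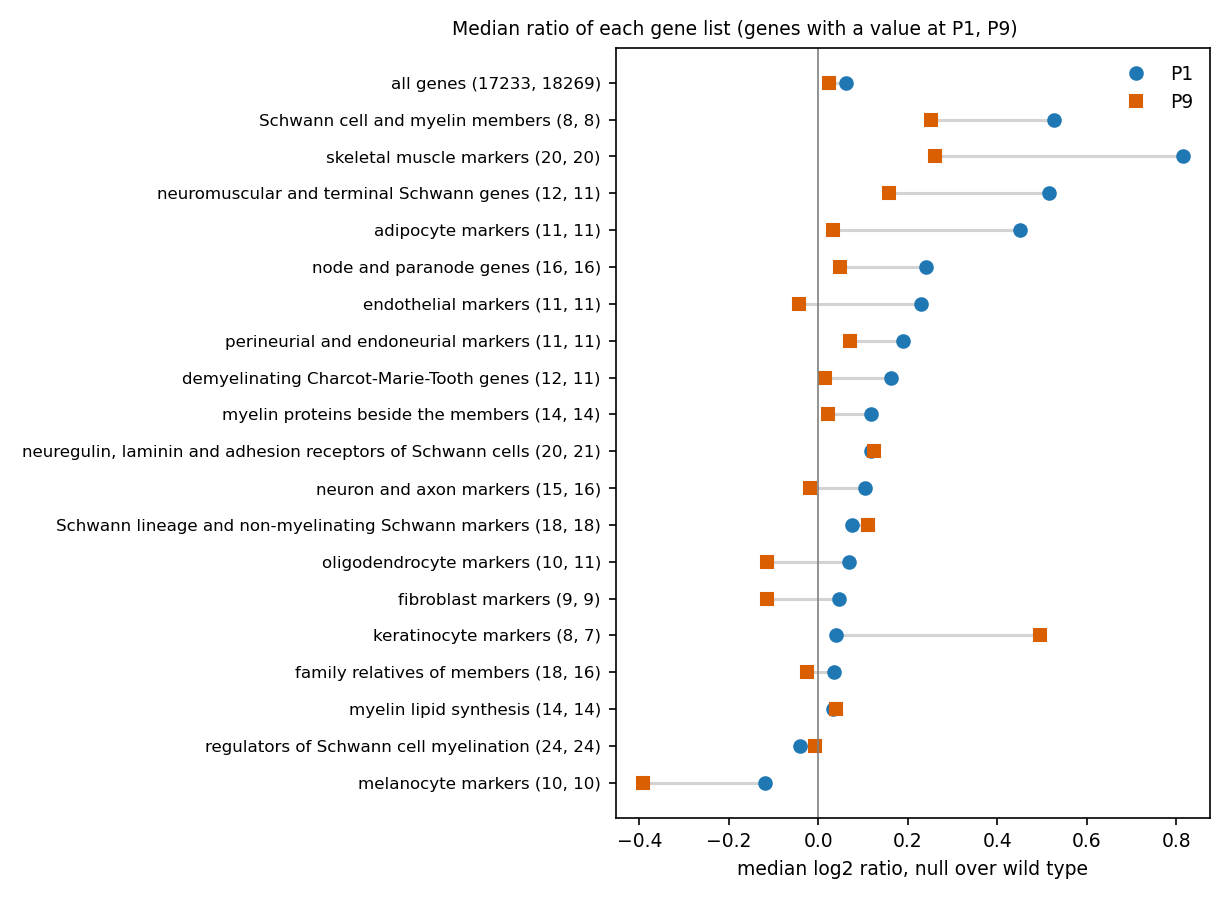
Median log2 ratio of null over wild type (horizontal axis) at P1 (blue circles) and P9 (orange squares) for all genes, the 8 Schwann cell and myelin genes and 18 related lists (vertical axis, with the numbers of genes with a value at P1 and P9 in parentheses). The 8 genes, at 0.53 and 0.25, have both medians above those of all genes, and their P1 median is between those of the skeletal muscle list at 0.81 and the neuromuscular list at 0.52.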

How the data were processed

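The authors deposited log2 ratios, 39212 rows with a column for each array. Amplified amino allyl RNA had been dyed with Cy3 or Cy5, per the labels. How the authors corrected background, normalized the dyes and left cells blank (11.3% at P1, 4.71% at P9) is not stated in those sources. Base 2 was inferred from the values, whose largest size of 4.898 would be 79067.9-fold in base 10. Direction follows the dyes in the labels. The median of the P1 column was −0.007 and that of the P9 column 0.005; both look centred, in a way that is unknown. Spot intensities were not used here, so no filter on signal was applied.

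Probes were named from the platform annotation, with symbols updated through Entrez identifiers against RefSeq for GRCm38.p6 (31210 of 31337 matched). The value of a gene is the mean of its probes. No test was run. The genes and the 18 related lists were chosen with earlier results of these data known. The motifs and windows shown were chosen after the ratios were seen. From each list, genes past 2-fold, the 3 largest of shared sign and the 2 largest age differences could be named; the text gives a selection, and Mog, Pou3f1, Nab1, Nab2, Erbb3, S100b, Foxd3, Cdh19 and Nefm were added for their role. The calling rule was run on simulated ratios with planted changes well past the threshold and independent noise for each probe. That run checks the code only. It cannot show how the rule acts on changes near the threshold or on probe and dye effects shared by the arrays. Python 3.11.15, numpy 2.4.6, pandas 2.3.3 and matplotlib 3.10.9 were used.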

Additional observations from a re-analysis of the deposited data

Results flagged for a closer look

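For 2 of the 8 genes the ratio had opposite signs at the 2 ages, and this difference was not tested. Pmp22 went from 0.02 at P1 to −0.31 at P9, a difference of −0.33, and Egr2 went from −0.11 to 0.28, a difference of 0.39. None of these 2 genes' ratios exceeded the spread between probes, and the probes of Pmp22 differed in sign at P1. Their opposite signs therefore do not show a reversal. Among the named genes of the related lists, 1 had opposite signs with both values larger than the spread between probes. This was Scn7a, a sodium channel gene of non-myelinating Schwann cells, at −0.68 at P1 and 0.54 at P9, a difference of 1.22 by 1 probe; it was not tested either.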

How the results depend on the processing

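No paired analysis was possible because each age has 1 array. The medians of the 8 genes moved by less than the spread between probes and kept their sign in all alternatives run, but some changed by more than 1.5 times. The P9 median was 0.12 instead of 0.25 over genes with at least 2 probes and 0.42 as a mean over the 8 genes, and the median of P9 minus P1 was −0.11 instead of −0.24 with both arrays scaled to the same spread and −0.04 as a mean. The number of the 8 genes past 2-fold was 1 instead of 0 at P1 over probes with a value on both arrays, which leaves Mobp at 1.70 without its low probe, and 3 at 1.5-fold. At P9 it was 2 at 1.5-fold, and 0 instead of 1 over genes with at least 2 probes or with Mobp left out. At 1.5-fold the shares of all genes were 9.08% higher and 6.92% lower at P1 and 6.17% and 3.30% at P9. With both arrays centred and scaled to the same spread, the shares past 2-fold were 0.975% higher and 0.685% lower at P1 and 0.985% lower at P9. Over genes with at least 2 probes, the median of the Charcot-Marie-Tooth list at P1 was −0.28 and that of keratinocyte markers at P9 was 0.10 (0.0993 before rounding), from fewer genes. Of 180 list medians recomputed, 178 moved by less than the spread between probes and 8 changed sign. That spread, 0.36 log2, is larger than most of the list medians, so staying within it does not show that a median is stable. Over genes with at least 2 probes, the P1 median of the neuromuscular list was 0.18 instead of 0.52. That of the node and paranode list was 0.04 instead of 0.24. Blank cells and the lack of intensities limit what these arrays show of dim transcripts.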

Other observations

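Relatives of the 8 genes had medians near 0. Of 19 family members chosen by name, 18 had a value at P1 and 16 at P9, with medians of 0.03 and −0.03. Among the EGR factors, which immediate early signals induce, Egr3 was at −1.36 at P1 by 1 probe and −0.46 ± 0.60 (SD, 2 probes) at P9, and Egr4 was at 0.20 and 1.59 by 1 probe, beside −0.11 and 0.28 for Egr2. Mall, a relative of Mal in epithelia, was at 0.51 and 0.54, and Emp1, a relative of Pmp22 named for its role, was at −0.63 and −0.34. Sox8, the relative of Sox10 also named for its role, was at 0.01 and −0.02 by 2 probes.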
